A study of Homo sapiens with 4 samples.

Results

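The CDKN1A-high cells were the 20% of cells with the largest share of CDKN1A transcripts in each of 2 libraries of differentiating human embryonic stem cells, 1957 of 9791 cells at day 6 and of 22599 cells in the whole series. The choice used CDKN1A counts alone. Each library was treated by itself, which gave 883 of 4419 cells in the SIRT1 knockout and 1074 of 5372 cells in wild type. Each was set against cells of its own library that held no CDKN1A transcript and had a matching total count.

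The data were droplet single-cell RNA counts from H9, an established human embryonic stem cell line, taken towards dopaminergic neurons. There were 4 groups: SIRT1 knockout at day 6, wild type at day 6, SIRT1 knockout at day 0 and wild type at day 0, with 1 library each. The knockout carried a deletion of SIRT1, an NAD-dependent protein deacetylase whose known substrates include p53, and the other cells are labelled wild type. The number of knockout clones and the deleted part of the gene are not given in the sources used here. Transcripts were counted by their molecular barcodes (UMIs), so that copies of 1 molecule count once, and levels are UMIs per 1000000 UMIs of the summed cells (CPM). With 1 library per group no difference has a replicate check, no test was made and no p-value is given. Ranges in parentheses after a level, ratio or share are exact 95% intervals, which compare cells of these libraries and cover counting error only.

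CDKN1A encodes p21, an inhibitor of cyclin-dependent kinases that arrests the cell cycle. Its best known activator is the transcription factor p53, which binds response elements near its targets after DNA damage and other stress, while MDM2, itself a target, marks p53 for degradation. Through p21, active p53 is also known to lead to repression of genes for G2 and mitosis, whose promoters often hold CHR and CCAAT boxes. GDF15, a secreted member of the TGF-beta superfamily, is a target of p53 and of stress pathways. CDKN1A is known to have activators other than p53.

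The promoters of 4 p53 targets that were higher in the CDKN1A-high cells of both libraries are shown first because they carry the response element pattern. Each line is 300 bases from RefSeq on GRCh38.p14, from 250 bases before to 50 bases after a transcription start, read 5′ to 3′ on the gene's strand. Capitals mark 2 adjacent half-sites of 10 bases each that match the p53 response element pattern with at most 3 mismatches. The windows are chr19:18385908-18386207 on the plus strand for GDF15, chr12:68808767-68809066 on the plus strand for MDM2, chr15:88621090-88621389 on the plus strand for AEN and chr6:109008939-109009238 on the minus strand for SESN1.
GDF15: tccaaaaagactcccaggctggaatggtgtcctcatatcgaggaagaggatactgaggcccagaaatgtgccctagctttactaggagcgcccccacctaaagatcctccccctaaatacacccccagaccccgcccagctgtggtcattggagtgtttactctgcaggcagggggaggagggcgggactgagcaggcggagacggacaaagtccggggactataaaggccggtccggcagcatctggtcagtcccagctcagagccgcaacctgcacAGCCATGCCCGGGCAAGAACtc
MDM2: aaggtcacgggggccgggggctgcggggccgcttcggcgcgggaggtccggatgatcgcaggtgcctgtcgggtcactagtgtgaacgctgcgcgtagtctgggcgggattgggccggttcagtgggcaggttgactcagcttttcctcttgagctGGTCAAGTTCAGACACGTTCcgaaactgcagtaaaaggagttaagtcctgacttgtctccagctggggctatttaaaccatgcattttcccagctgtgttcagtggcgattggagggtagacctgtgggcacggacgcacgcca
AEN: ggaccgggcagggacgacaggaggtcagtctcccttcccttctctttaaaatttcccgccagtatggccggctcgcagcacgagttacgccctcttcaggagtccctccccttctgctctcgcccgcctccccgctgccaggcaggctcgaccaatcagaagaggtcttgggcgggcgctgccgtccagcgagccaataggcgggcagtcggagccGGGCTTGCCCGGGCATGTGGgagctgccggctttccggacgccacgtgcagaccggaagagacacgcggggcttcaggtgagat
SESN1: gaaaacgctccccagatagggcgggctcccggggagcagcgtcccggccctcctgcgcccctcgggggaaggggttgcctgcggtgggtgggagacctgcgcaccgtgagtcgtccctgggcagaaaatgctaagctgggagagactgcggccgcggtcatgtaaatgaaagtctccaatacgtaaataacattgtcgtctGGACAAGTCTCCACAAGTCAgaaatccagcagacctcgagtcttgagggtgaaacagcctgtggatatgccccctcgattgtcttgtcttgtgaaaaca
In MDM2, AEN and SESN1 the pair began 94, 34 and 49 bases before the annotated start, and in GDF15 it began 28 bases after it. MDM2 and SESN1 have other annotated starts whose windows hold no pair. The MDM2 and AEN pairs had 2 mismatches, and those of GDF15 and SESN1 had 3. Of 31 list members higher in both libraries, 24 had a RefSeq window, and 8 of the 24 (33.3%) held such a pair on either strand with a spacer of at most 1 base. The share was 0 of 15 among measured list members that were higher in neither library, and 2.91% over all 27303 genes with a window. The CDKN1A window held no such pair. The p53 list was drawn from known targets, so these shares describe the list and are not independent of how it was made.

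The promoters of CENPA, which encodes the centromeric histone, and PLK1, a mitotic kinase, are shown as lower genes that hold both boxes searched. The windows of CCNB1, NEK2 and KIF20A, also lower in both libraries, hold CCAAT and no TTTGAA. Capitals mark TTTGAA, the core of the CHR element, and CCAAT, which reads ATTGG on the other strand. The windows are chr2:26785806-26786105 and chr16:23678639-23678938, both on the plus strand.
CENPA: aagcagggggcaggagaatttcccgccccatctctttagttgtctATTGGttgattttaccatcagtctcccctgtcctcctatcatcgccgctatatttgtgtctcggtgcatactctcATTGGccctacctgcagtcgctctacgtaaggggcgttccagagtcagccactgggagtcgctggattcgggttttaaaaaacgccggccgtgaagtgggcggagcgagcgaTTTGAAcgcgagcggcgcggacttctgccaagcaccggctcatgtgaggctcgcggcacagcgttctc
PLK1: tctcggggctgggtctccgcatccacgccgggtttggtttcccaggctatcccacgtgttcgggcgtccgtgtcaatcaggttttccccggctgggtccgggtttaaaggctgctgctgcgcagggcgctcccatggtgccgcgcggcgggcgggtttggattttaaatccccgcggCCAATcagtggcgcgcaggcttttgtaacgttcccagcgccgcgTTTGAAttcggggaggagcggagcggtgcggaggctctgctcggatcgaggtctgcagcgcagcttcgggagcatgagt
Of 37 listed G2 and M phase genes lower in both libraries, among them CENPA and not PLK1, which the list does not hold, 30 had a window. TTTGAA stood on either strand in 22 of them (73.3%), against 18.2% of all genes with a window, and CCAAT in 22 (73.3%), against 39.7%. Among genes measured in both libraries the shares were 13.7% for the first box and 44.7% for the second. The second box also stood in 62.5% of the p53 targets higher in both libraries and 60% of those higher in neither. It was thus not particular to the lower genes. The first box stood in 8.33% of the p53 targets higher in both libraries and 6.67% of those higher in neither. A match is a run of letters and not a shown binding site.

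The cells that entered had at least 4000 UMIs, 1000 genes and at most 20% mitochondrial UMIs. Median totals were 13169 UMIs in SIRT1 knockout cells and 8590 in wild-type cells at day 6. The summed cells held 65336710 UMIs in the knockout and 51424092 in wild type. The 2 libraries shared 5 cell barcodes, and pairs of all 4 libraries shared 5 to 18. SIRT1 was at 9.95 CPM (9.20 to 10.7) in the knockout and 30.2 CPM (28.8 to 31.8) in wild type at day 6. Transcript ends outside the deleted part would still be counted, so this level does not check the deletion itself. With ribosomal protein and mitochondrial genes left out, genes on chromosome 20 held a median 2.41% of a cell's remaining UMIs in the knockout and 3.25% in wild type. The part of this in differences between the libraries was not tested.

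CDKN1A itself was much less abundant in the knockout library, so the same 20% rule took different ranges of cells. Its level over all cells was 68.9 CPM (66.9 to 70.9) in the knockout at day 6 and 292 CPM (287 to 297) in wild type at day 6. At day 0 it was 64.8 CPM in the knockout and 45.1 CPM in wild type. With each cell thinned to 4000 UMIs, 16.2% of knockout cells and 49.5% of wild-type cells at day 6 held a CDKN1A UMI (36.1% of knockout and 67.3% of wild-type cells unthinned). Free RNA, read from nearly empty droplets, would give 2.99% in the knockout and 8.01% in wild type, if it made up 10% of a cell's UMIs. The CDKN1A-high cells held 81.6% of all CDKN1A UMIs of the knockout cells and 60.8% of those of the wild-type cells.

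These values chose the cells and are a description. The lowest CDKN1A-high cell of the knockout stood at 99.5 CPM from 2 UMIs and the highest cell outside at 99.4 CPM from 1 UMI. In wild type the lowest CDKN1A-high cell stood at 478 CPM from 5 UMIs and the highest cell outside at 477 CPM from 3 UMIs. The median CDKN1A-high cell had 3 UMIs in the knockout and 7 in wild type. In the knockout 126 of the 883 had a single UMI, 399 had 2 or 3 and 358 had 4 or more, whereas in wild type none had 1, 64 had 2 or 3 and 1010 had 4 or more. The name therefore covers cells at or above very different levels in the 2 libraries, and there is no gap in level at either border.

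Cells without a CDKN1A UMI numbered 2823 (63.9%) in the knockout and 1754 (32.7%) in wild type. All 883 knockout CDKN1A-high cells found a partner within 0.1 on the log2 scale of total UMIs. In wild type 1027 did, and the 47 left out each had at least 9609 UMIs. Matched median totals were 14730 UMIs in CDKN1A-high and 14725 in CDKN1A-zero cells of the knockout, and 9196 in CDKN1A-high and 8683 in CDKN1A-zero cells of wild type. Mitochondrial UMIs made up 1.76% in CDKN1A-high and 1.59% in CDKN1A-zero cells of the knockout, and 2.21% in CDKN1A-high and 1.88% in CDKN1A-zero cells of wild type, as medians, and their part in the ratios was not tested. The 13 mitochondrially encoded genes had a median log2 ratio of 0.07 in the knockout and 0.25 in wild type, and none passed the size rule given next.

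A gene counted as higher or lower where the ratio of its CPM, CDKN1A-high over CDKN1A-zero cells, was at least 1.5-fold with an interval that excludes 1, and it was measured where it reached 10 CPM in either set. Of 8721 measured genes in the knockout, 135 (1.55%) were higher and 163 (1.87%) were lower. Of 8175 in wild type, 278 (3.4%) were higher and 378 (4.62%) were lower. The median log2 ratio over all measured genes was -0.05 in the knockout and -0.07 in wild type. Of the genes measured in both libraries, 94 were higher in both, which is 76.4% of those higher in the knockout and 50.3% of those higher in wild type. Another 113 were lower in both, 87.6% of the knockout's and 30.7% of wild type's. With pairs matched within the cell clusters described further on, 57 were higher in both, 73.1% of the knockout's and 53.3% of wild type's. Only 3 were then lower in both, 33.3% of the knockout's 9 and 2.70% of wild type's 111. With TMM scaling the higher genes made up 55.2% of the genes past the rule in the knockout and 56.6% in wild type, against 45.3% in the knockout and 42.4% in wild type without it.

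GDF15, on chromosome 19 (18374731 to 18389176, plus strand, GENCODE on GRCh38), had the highest ratio in the knockout and, apart from H3.Y, in wild type. It stood at 101 CPM in CDKN1A-high and 9.61 CPM in CDKN1A-zero cells of the knockout, 10.5-fold higher (8.79 to 12.6). In wild type it stood at 289 CPM in CDKN1A-high and 34.8 CPM in CDKN1A-zero cells, 8.29-fold higher (7.40 to 9.32). At 4000 UMIs per cell, 25.8% of CDKN1A-high and 3.51% of CDKN1A-zero knockout cells held a GDF15 UMI (49.0% of CDKN1A-high and 10.9% of CDKN1A-zero cells unthinned). In wild type 44.3% of CDKN1A-high and 11.6% of CDKN1A-zero cells did (61.0% of CDKN1A-high and 19.7% of CDKN1A-zero cells unthinned). Free RNA would give 1.44% in the knockout and 3.58% in wild type, below each of these shares. The cell with the most GDF15 held 2.22% of the GDF15 UMIs of CDKN1A-high cells in the knockout and 2.06% in wild type, so no single cell carried the ratio. Most CDKN1A-high cells showed no GDF15 UMI at the thinned depth.

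Most measured members of a list of 59 p53 targets other than CDKN1A were higher in both libraries. A member could enter through the set in which it is high. Without the 10 CPM minimum 36 were higher in the knockout, where 470 of all 23204 genes were. In wild type 37 then were, where 689 of all 22444 genes were. In the knockout 32 of 50 measured members were higher, against 1.55% of all genes, 0 were lower and 18 were neither, with a median log2 ratio of 0.86. In wild type 33 of 51 were higher, against 3.4% of all genes, 0 were lower and 18 were neither, with a median of 0.91. The 31 members higher in both include regulators of p53 itself, death genes, arrest and repair genes and metabolic genes. BLOC1S2 passed the rule in the knockout alone, at 1.79 against 1.48 in wild type, and PRKAB1 and DRAM1 in wild type alone. DRAM1 had a like ratio in the knockout (2.11) but under 10 CPM.

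Regulators of p53 came first by role. MDM2, the ubiquitin ligase of p53, stood at 142 CPM in CDKN1A-high and 79.2 CPM in CDKN1A-zero cells of the knockout, a ratio of 1.79 (1.66 to 1.93). It stood at 195 CPM in CDKN1A-high and 83.9 CPM in CDKN1A-zero cells of wild type, a ratio of 2.32 (2.14 to 2.53). Within clusters the MDM2 ratios were 1.66 (1.54 to 1.79) in the knockout and 1.78 (1.61 to 1.98) in wild type, and these intervals overlap. PPM1D, a phosphatase that acts on p53 and its kinases, had ratios of 2.52 in the knockout and 2.37 in wild type. PHLDA3, an inhibitor of the kinase AKT, had ratios of 3.57 (2.94 to 4.37) in the knockout and 4.02 (3.36 to 4.83) in wild type.

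Among targets with a role in cell death, BBC3, the BH3-only protein PUMA, stood at 74.1 CPM in CDKN1A-high and 15.96 CPM in CDKN1A-zero cells of the knockout, 4.64-fold higher (4.01 to 5.39). In wild type it stood at 115 CPM in CDKN1A-high and 33.3 CPM in CDKN1A-zero cells, 3.47-fold higher (3.06 to 3.94). PMAIP1, the BH3-only protein NOXA, had ratios of 2.28 (2.03 to 2.57) in the knockout and 2.72 (2.42 to 3.06) in wild type. The death receptor gene TNFRSF10B had ratios of 1.96 in the knockout and 1.69 in wild type, where it had 1.49 and did not pass within the cell clusters described further on. The nuclease gene AEN had 2.69 in the knockout and 2.27 in wild type. PIDD1, a scaffold for caspase activation, had 1.87 in the knockout and 2.36 in wild type.

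Other death genes did not pass. BAX, the pore-forming effector, had ratios of 1.46 in the knockout and 1.29 in wild type, short of 1.5-fold, and APAF1, the core of the apoptosome, had 1.14 in the knockout and 1.08 in wild type. In the wider list of the BCL2 family and apoptosis, 2 of 13 measured members were higher in the knockout (1.55% of all genes), BBC3 and PMAIP1, and 4 of 14 in wild type (3.4% of all genes), where BCL2L1 (1.76) and BAK1 (1.54) joined them. BCL2L1 encodes the survival protein BCL-XL, which opposes the others. None of that list was lower in either library, where 1.87% of all genes were in the knockout and 4.62% in wild type.

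Several targets with roles in growth arrest, repair and metabolism were higher, while others such as XPC and TP53I3, described next, were not. GADD45A, a growth arrest gene, stood at 144 CPM in CDKN1A-high and 52.7 CPM in CDKN1A-zero knockout cells (2.73-fold, 2.51 to 2.98), and at 298 CPM in CDKN1A-high and 99.6 CPM in CDKN1A-zero wild-type cells (2.99-fold, 2.78 to 3.22). The polo-like kinase gene PLK2 was 3.76-fold higher in the knockout and 3.47-fold in wild type, and PLK3 was 2.60-fold higher in the knockout and 3.71-fold in wild type. BTG2, an antiproliferative gene, had ratios of 2.34 in the knockout and 2.10 in wild type, and ZMAT3, an RNA-binding protein gene, had 2.57 in the knockout and 2.10 in wild type. The sestrin genes SESN1 and SESN2, inhibitors of mTORC1, were higher too: SESN1 had ratios of 2.77 in the knockout and 2.96 in wild type, and SESN2 had 2.45 in the knockout and 2.81 in wild type. Among repair genes DDB2 had 1.76 in the knockout and 1.57 in wild type, RRM2B had 1.95 in the knockout and 1.88 in wild type, and the polymerase gene POLH had 2.33 in the knockout and 2.36 in wild type. FDXR, a mitochondrial reductase, had 2.30 in the knockout and 2.12 in wild type, and TIGAR, a regulator of glycolysis, had 2.20 in the knockout and 1.89 in wild type.

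Of the 50 members measured in both libraries, 17 were higher in neither. They include CCNG1 (ratios of 1.03 in the knockout and 0.93 in wild type), TP53I3 (1.18 in the knockout and 1.01 in wild type), XPC (1.22 in the knockout and 1.27 in wild type) and PERP (0.88 in the knockout and 0.83 in wild type). CCNG1 was abundant, at 340 CPM in CDKN1A-high and 332 CPM in CDKN1A-zero cells of the knockout, so low counts did not keep it from passing. The 8 members not measured in either library were FAS, SPATA18, TNFRSF10A, CD82, FUCA1, LIF, MICALL1 and PTP4A1.

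**Figure D1:**
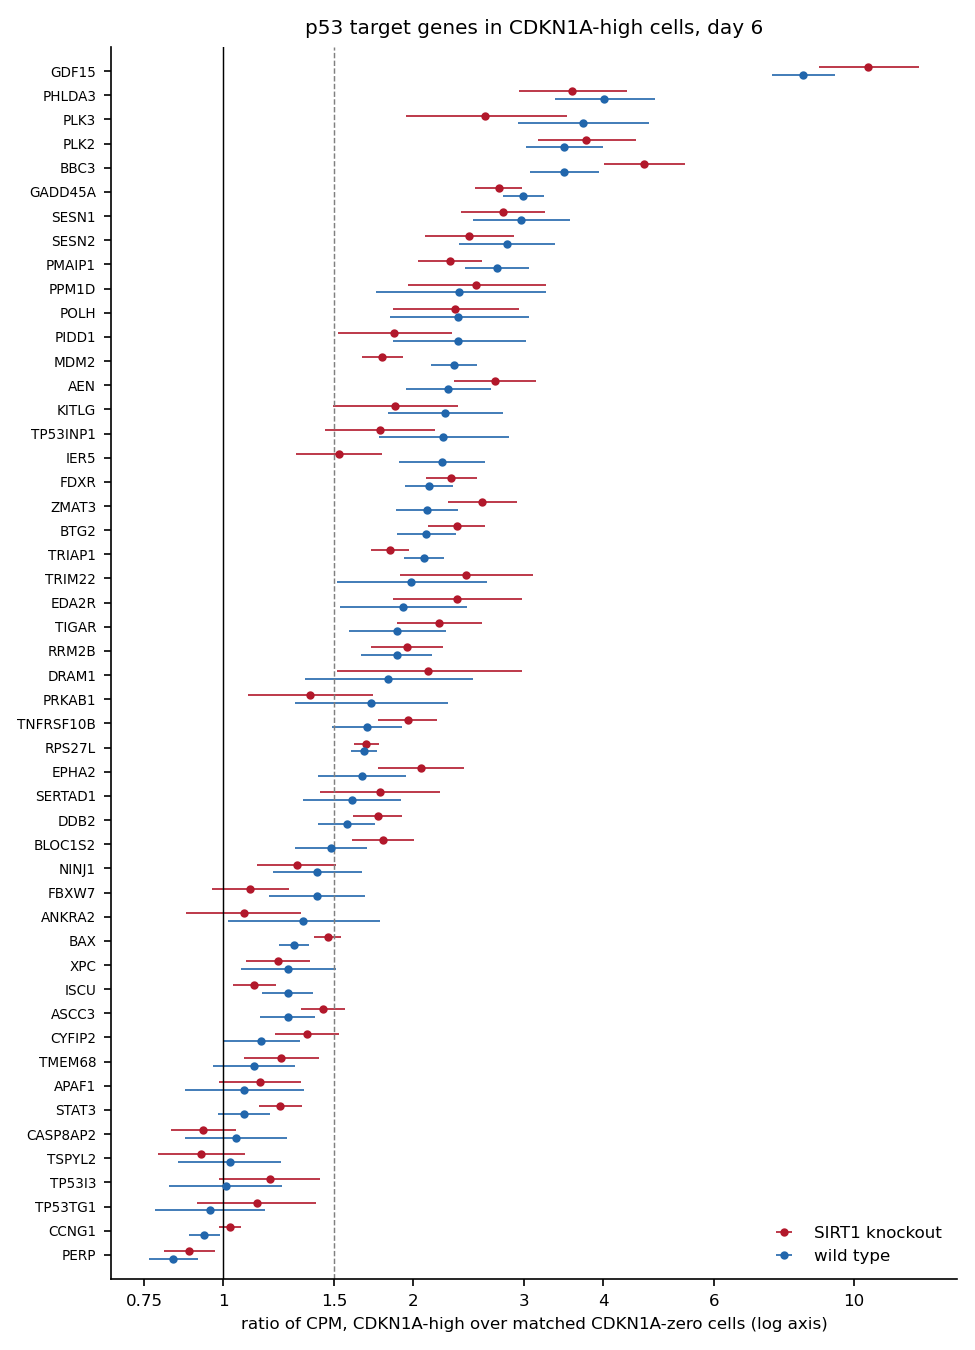
Ratio of CPM in CDKN1A-high over matched CDKN1A-zero cells (log axis) for 50 of the 51 p53 targets measured in a day 6 library, SIRT1 knockout in red above wild type in blue, bars being exact 95% intervals. The dashed line marks 1.5-fold: GDF15 lies farthest right at 10.5 in the knockout and 8.29 in wild type, and CCNG1 and PERP lie near or below 1.

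RNAs outside the list moved to a like extent. NEAT1, the long non-coding RNA of paraspeckles, stood at 638 CPM in CDKN1A-high and 204 CPM in CDKN1A-zero knockout cells (3.12-fold, 2.995 to 3.26), and at 2366 CPM in CDKN1A-high and 841 CPM in CDKN1A-zero wild-type cells (2.82-fold, 2.74 to 2.89). MIR34AHG, the host transcript of the microRNA miR-34a, was 3.64-fold higher (2.92 to 4.57) in the knockout and 3.24-fold (2.54 to 4.17) in wild type. Both are known p53 targets that the list did not hold. STK17A, a kinase gene linked to apoptosis, had ratios of 2.71 in the knockout and 3.06 in wild type, and the cytokine gene TNFSF9 had 3.77 in the knockout and 4.10 in wild type. The neuropeptide precursor gene VGF had ratios of 3.59 in the knockout and 2.49 in wild type, which came to 1.71 in the knockout and 1.30 in wild type within cell clusters. The signalling regulator gene RGS16 had 2.26 in the knockout and 4.32 in wild type. The transcript AC093866.1 was 4.06-fold higher in the knockout and 2.04-fold in wild type.

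**Figure D2:**
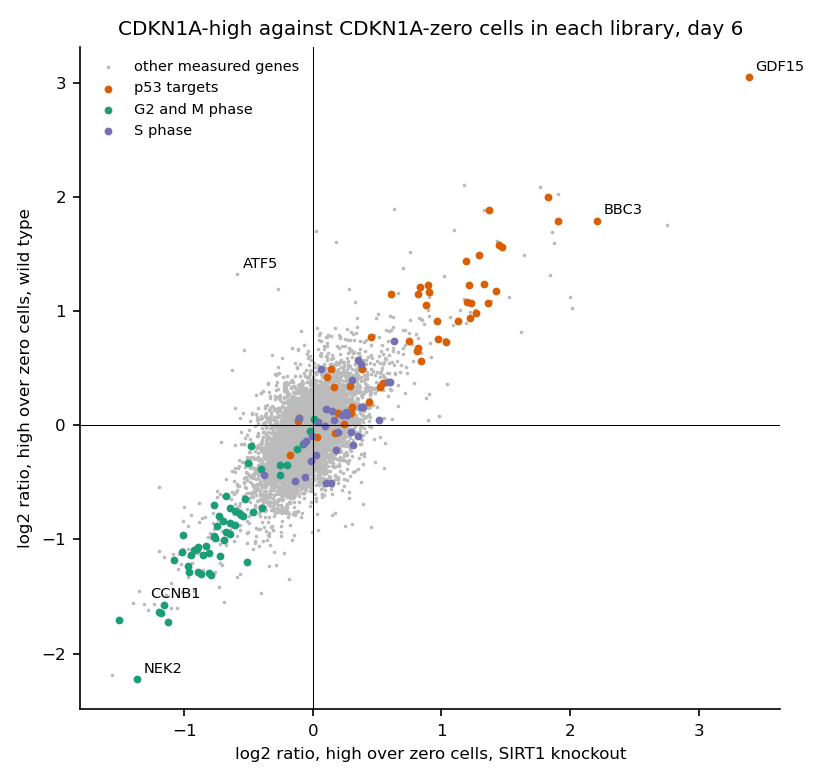
Log2 ratio of CDKN1A-high over CDKN1A-zero cells in the SIRT1 knockout (horizontal) and in wild type (vertical), each point a gene measured in both libraries, without CDKN1A. p53 targets (orange, medians 0.86 and 0.91) lie to the upper right, G2 and M phase genes (green, medians -0.72 and -0.96) to the lower left, and S phase genes (purple, medians 0.17 and 0.04) near the centre.

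Genes of G2 and mitosis were lower in the CDKN1A-high cells. Of the 54 measured list members, 37 were lower in the knockout (1.87% of all genes) and 44 in wild type (4.62%), and 0 were higher in either. The medians were -0.72 in the knockout and -0.96 in wild type on the log2 scale, and 37 were lower in both libraries. CCNB1, cyclin B1 of the mitotic kinase and, like KIF20A and PLK1, no member of that list, stood at 78.1 CPM in CDKN1A-high and 194 CPM in CDKN1A-zero knockout cells (ratio 0.403, 0.375 to 0.432), and at 47.9 CPM in CDKN1A-high and 142 CPM in CDKN1A-zero wild-type cells (ratio 0.338, 0.304 to 0.375). The kinesin gene KIF20A had ratios of 0.339 in the knockout and 0.218 in wild type, and NEK2, a centrosomal kinase gene, had 0.388 in the knockout and 0.213 in wild type. CENPA had 0.351 in the knockout and 0.307 in wild type. The mitotic kinase genes AURKA and PLK1 had 0.437 and 0.466 in the knockout and 0.322 and 0.330 in wild type.

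S phase genes did not share that pattern. Of 38 measured in the knockout, 3 were higher (PCNA, FEN1 and RRM2; 1.55% of all genes) and 0 lower, with a median of 0.17. Of 34 in wild type, 1 was higher (PCNA; 3.4% of all genes) and 0 lower, with a median of 0.04. Within clusters 0 were higher (0.944% of all genes) and 1 lower (0.345%) in the knockout, with a median of -0.08. In wild type 1 was then higher (1.76%) and 2 lower (1.52%), with a median of -0.01. PCNA, the replication clamp, had ratios of 1.55 (1.41 to 1.70) in the knockout and 1.66 (1.45 to 1.91) in wild type, and is itself a known p53 target. Within clusters PCNA had 1.20 in the knockout and 1.56 in wild type. Of 7 other listed inhibitors of cyclin-dependent kinases, 3 were measured in the knockout, and these 3 did not pass as higher in either library. CDKN1B, which encodes p27, had ratios of 0.809 in the knockout and 0.620 in wild type. CDKN1C, which encodes p57, had 0.908 in the knockout and 1.46 in wild type, where its interval lay above 1 but the ratio was short of 1.5-fold. CDKN3, a phosphatase gene expressed in mitosis, had 0.483 in the knockout and 0.417 in wild type, and 0.739 in the knockout and 0.738 in wild type within clusters. Of 19 DNA damage response genes measured in each library, none was higher, where 1.55% of all genes were in the knockout and 3.4% in wild type. H2AFX, a histone variant gene, was lower in wild type at 0.651 (4.62% of all genes were lower), and 0.943 within clusters.

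Fewer G2 and M phase genes were lower when pairs came from the same cell cluster. Each library was clustered without CDKN1A, and pairs were then also matched within a cluster, which left 854 pairs in the knockout and 660 in wild type. Wild-type clusters with fewer CDKN1A-zero than CDKN1A-high cells lost CDKN1A-high cells for want of a partner. The ratios within clusters therefore weigh the wild-type clusters differently from those by depth alone. The clustering left out neither G2 and M phase genes nor the other p53 targets. CENPA and NEK2 of the G2 and M phase list led a knockout cluster, and the p53 target PMAIP1 was among the leading genes of another. Matching within clusters therefore narrows the difference in the G2 and M phase list by design, and it can narrow that of p53 targets too. The p53 list then had 32 of 50 members higher in the knockout, against 0.944% of all genes, and 29 of 52 in wild type, against 1.76%, with medians of 0.73 in the knockout and 0.70 in wild type. Of the G2 and M phase list, 0 were lower in the knockout (0.345% of all genes) and 4 in wild type (1.52%), with medians of -0.17 in the knockout and -0.21 in wild type. GDF15 remained 6.04-fold higher (5.22 to 7.02) in the knockout and 4.46-fold (3.93 to 5.07) in wild type. Of the 31 p53 members higher in both libraries, 28 were also higher in both under this matching. In wild type GADD45A had a ratio of 2.99 by depth alone and 1.68 within clusters. Matching within tertiles of cell-cycle transcripts instead left 33 of 50 p53 members higher in the knockout (1.22% of all genes) and 35 of 52 in wild type (3.19%). G2 and M phase genes were then lower for 6 of 54 in the knockout (0.553%) and 27 of 54 in wild type (3.44%). The tertiles were cut on the summed share of the S phase and G2 and M phase lists themselves. The smaller number of lower G2 and M phase genes was thus partly built in by the matching.

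**Figure D3:**
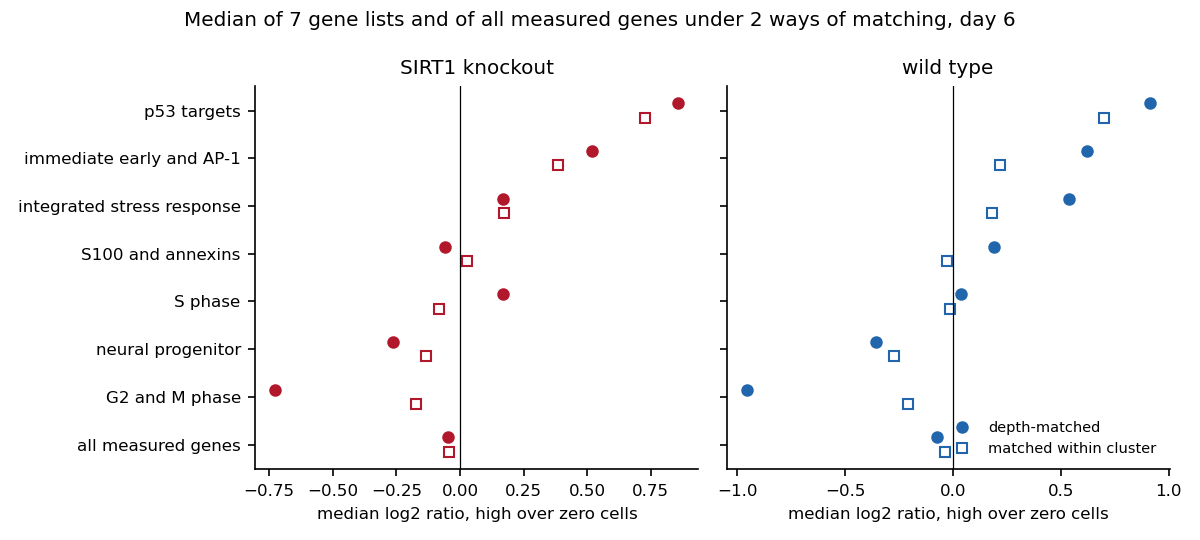
Median log2 ratio of CDKN1A-high over CDKN1A-zero cells for 7 gene lists and for all measured genes, SIRT1 knockout left and wild type right, filled circles for pairs matched on depth and open squares for pairs also matched within a cluster. The p53 targets stay at 0.73 and 0.70 within clusters, and the G2 and M phase genes move to -0.17 and -0.21.

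A clustering of the cells showed where the CDKN1A-high cells sat. In the knockout they made up 33.3% (30.1 to 36.6) of a cluster led by AL157396.1, LGI1 and CNTNAP2 and 30.1% (27.1 to 33.2) of one with LNCPRESS1, MIR302CHG and POU5F1 among its leading genes. They made up 6.63% (4.89 to 8.74) of a cluster led by CENPA, NEK2 and KIF20A, which are mitotic genes. The highest knockout share was 38.2% in a cluster of 68 cells led by KRT17 and COL3A1, with an interval of 26.7 to 50.8.

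Wild type had 1 cluster that stood apart. CDKN1A-high cells made up 49.2% (44.9 to 53.6) of its 520 cells, which were led by ANXA1, GREM1, FLNC, UPP1 and SPP1, and this cluster held 23.8% of all CDKN1A-high wild-type cells. CDKN1A stood at 571 CPM there and GDF15 at 300.3 CPM. Shares in the other wild-type clusters ran from 3.82% to 28.8%, the lowest being in a cluster with CDKN3, KIF4A and CCNB2 among its leading genes. In both libraries a cluster with FN1, BMP4 and PROX1 among its leading genes had a low share, at 9.15% (7.33 to 11.2) in the knockout and 8.29% (6.80 to 9.98) in wild type. FOXA2, a transcription factor of the floor plate, the ventral midline from which dopaminergic progenitors arise, was also among the leading genes of that cluster in wild type. It was as well among those of another wild-type cluster, led by ZBTB16 and SAT1, of which CDKN1A-high cells made up 26.9% (23.2 to 30.9).

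**Figure D4:**
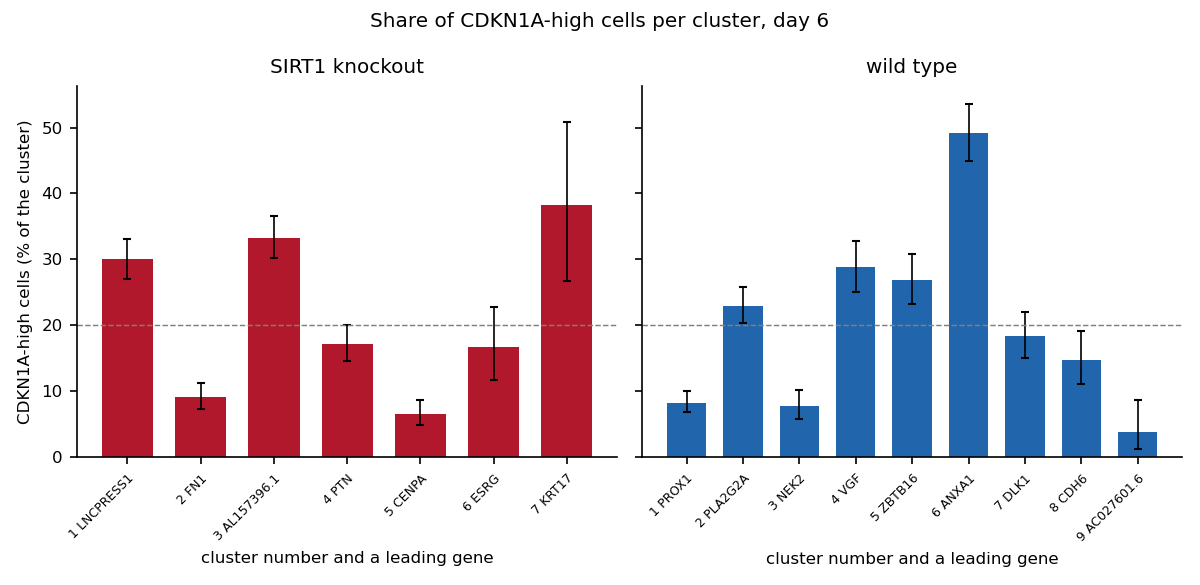
Share of CDKN1A-high cells (% of the cluster, with exact 95% intervals) in each cluster of at least 50 cells, SIRT1 knockout left and wild type right, labelled by number and a leading gene. The dashed line is the 20% that the rule fixes for the whole library: the cluster led by ANXA1 reaches 49.2% in wild type, and those led by CENPA and NEK2 stand at 6.63% and 7.80%.

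Genes that lead the wild-type cluster richest in CDKN1A-high cells were higher in wild type, and less so or not when pairs came from the same cluster. That cluster held 256 CDKN1A-high and 39 CDKN1A-zero cells, so at most 39 of its pairs could enter the matching within clusters. Most of its CDKN1A-high cells were thus left out of the ratios within clusters, and the part of this in the smaller ratios was not tested. ANXA1, a calcium-dependent phospholipid-binding protein gene, stood at 74.5 CPM in CDKN1A-high and 17.7 CPM in CDKN1A-zero wild-type cells (4.22-fold, 3.56 to 5.01), and 1.13-fold when matched within clusters. In the knockout it stood at 2.16 CPM in CDKN1A-high and 2.74 CPM in CDKN1A-zero cells, below the 10 CPM of a measured gene. SPP1, which encodes osteopontin, stood at 14.6 CPM in CDKN1A-high and 9.46 CPM in CDKN1A-zero knockout cells, a ratio of 1.55 (1.24 to 1.94) and 1.19 within clusters. In wild type it stood at 335 CPM in CDKN1A-high and 90.2 CPM in CDKN1A-zero cells, a ratio of 3.72 and 1.68 within clusters. The uridine phosphorylase gene UPP1 had ratios of 1.13 in the knockout and 3.04 in wild type, and 1.29 within wild-type clusters. The filamin gene FLNC had 1.02 in the knockout and 3.26 in wild type, and 1.47 within wild-type clusters. Of the cytoskeleton and adhesion list, 1 of 18 was higher in the knockout (ACTA2, 1.87), against 1.55% of all genes, and 5 of 19 in wild type, among them TAGLN at 2.28, against 3.4%. Within wild-type clusters 0 of 19 were, against 1.76%. Of the S100 and annexin list, 0 of 10 were higher in the knockout (1.55% of all genes) and 3 of 12 in wild type (3.4%), where 0 of 12 were within clusters (1.76%).

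Some stress genes outside the p53 list were also higher. Of the immediate early and AP-1 list, 7 of 16 were higher in the knockout (1.55% of all genes) with a median of 0.52 and 8 of 16 in wild type (3.4%) with a median of 0.62, and 0 were lower. FOSL1, a subunit of the AP-1 transcription factor, stood at 14.9 CPM in CDKN1A-high and 2.17 CPM in CDKN1A-zero knockout cells (6.86-fold, 4.66 to 10.4), and at 49.4 CPM in CDKN1A-high and 14.6 CPM in CDKN1A-zero wild-type cells (3.38-fold, 2.79 to 4.10). EGR1, an early growth response factor, had ratios of 3.07 in the knockout and 1.77 in wild type, and ATF3, a stress-induced factor, had 2.10 in the knockout and 1.93 in wild type. Within clusters 4 of the 16 were higher in the knockout (0.944%) and 2 in wild type (1.76%).

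Of the integrated stress response, the ATF4-driven answer to amino acid and other stress, 5 of 19 measured genes were higher (1.55% of all genes) and 1 lower (1.87%) in the knockout, with a median of 0.17. In wild type 10 of 21 were higher (3.4%) and 0 lower (4.62%), with a median of 0.54, and within wild-type clusters 5 of 20 were higher (1.76%) with a median of 0.18. CHAC1, a glutathione-degrading enzyme gene, had ratios of 2.14 in the knockout and 1.85 in wild type. ATF5, a transcription factor of this response, went in opposite directions. It stood at 9.02 CPM in CDKN1A-high and 13.6 CPM in CDKN1A-zero knockout cells (ratio 0.664, 0.525 to 0.837), and at 64.3 CPM in CDKN1A-high and 25.6 CPM in CDKN1A-zero wild-type cells (ratio 2.51, 2.16 to 2.92). Within clusters its ratios were 0.921 in the knockout and 1.59 in wild type. HSPA1B, an inducible chaperone gene, had 1.69 in the knockout and 2.88 in wild type and was the 1 of 10 heat shock genes that was higher in each library (1.55% of all genes in the knockout and 3.4% in wild type). Of 13 unfolded protein response genes, none was higher in the knockout (1.55% of all genes), and HSPA5 (1.58) and HERPUD1 (2.12) were in wild type (3.4%).

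A few patterning genes were lower. Of the neural progenitor list, 0 were higher in either library, and 2 of 12 were lower in the knockout (1.87% of all genes) and 4 of 11 in wild type (4.62%). PTN, a growth factor gene of neural progenitors, stood at 575 CPM in CDKN1A-high and 893 CPM in CDKN1A-zero knockout cells (ratio 0.643, 0.626 to 0.662), and at 136 CPM in CDKN1A-high and 213 CPM in CDKN1A-zero wild-type cells (ratio 0.641, 0.598 to 0.687). FABP7, a fatty acid binding protein gene of radial glia, had ratios of 0.627 in the knockout and 0.556 in wild type. Within clusters PTN had 0.835 in the knockout and 0.743 in wild type and no longer passed, nor did FABP7 at 0.704 in the knockout and 0.680 in wild type. Other patterning genes passed in the knockout under that matching and not by depth alone: SOX3 of the neural progenitor list was lower, as were SIX3 and SIX6, 2 of 3 measured anterior forebrain genes, against 0.345% of all genes. By depth alone the midbrain-hindbrain genes PAX8 (0.655) and IRX3 (0.566) were lower in the knockout, 2 of 4 measured, against 1.87% of all genes. Neither passed within clusters. FOXA2 had 0.789 (0.729 to 0.854) in the knockout and 0.510 (0.461 to 0.565) in wild type, and SLIT2, an axon guidance gene of the floor plate, had 0.847 in the knockout and 0.559 in wild type. Within clusters the FOXA2 ratios were 0.832 in the knockout and 0.685 in wild type. Of the pluripotency list, UTF1 and ESRG, 2 of 14 measured genes in each, were higher in both libraries (1.55% of all genes in the knockout and 3.4% in wild type). UTF1 had 2.35 in the knockout and 1.99 in wild type, and ESRG had 2.22 in the knockout and 2.01 in wild type. Within clusters neither passed in the knockout and UTF1 alone did in wild type, at 1.51. POU5F1, the core pluripotency factor OCT4, had 1.37 in the knockout and 1.23 in wild type, short of the rule.

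Of 18 hypoxia response genes, none passed in the knockout and 4 were lower in wild type, against 4.62% of all genes, among them INSIG2 at 0.513 and EGLN1 at 0.529. Of 23 glycolysis genes, none passed in the knockout. In wild type 1 did, PFKFB4, lower at 0.662 (4.62% of all genes were lower) and 0.768 within clusters. None of 23 cholesterol synthesis genes passed in either library. Over all genes, 1.55% were higher and 1.87% lower in the knockout, and 3.4% were higher and 4.62% lower in wild type. SIRT1 itself had ratios of 1.09 (0.846 to 1.40) in the knockout and 0.944 (0.804 to 1.11) in wild type, so its level was not distinguishable between the 2 sets of cells at this depth. Summed markers of endoderm stood at 5.99 CPM in CDKN1A-high and 6.36 CPM in CDKN1A-zero knockout cells and at 11.3 CPM in CDKN1A-high and 9.63 CPM in CDKN1A-zero wild-type cells. Those of mesoderm stood at 21.5 CPM in CDKN1A-high and 21.02 CPM in CDKN1A-zero knockout cells and near 14 CPM in both sets of wild-type cells. Those of endothelium stood at 46.4 CPM in CDKN1A-high and 47.2 CPM in CDKN1A-zero knockout cells and at 36.4 CPM in CDKN1A-high and 36.2 CPM in CDKN1A-zero wild-type cells. None of the measured interferon response, keratin and sirtuin genes passed in either library. Of the neural crest markers ERBB3 was lower in the knockout (0.611), where 1.87% of all genes were. ETS1 was higher in wild type (2.21), where 3.4% of all genes were, and neither passed within clusters.

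Since the 20% rule took different levels in the 2 libraries, cells were also grouped by CDKN1A UMIs among 4000 UMIs drawn from each cell. Groups with 0, 1, 2 and 3 or more held 3704, 488, 145 and 82 knockout cells and 2714, 1203, 629 and 826 wild-type cells. GDF15 stood at 21.8, 77.5, 88.3 and 176 CPM in these knockout groups and at 56.1, 109, 153 and 290.2 CPM in the wild-type groups. BBC3 stood at 24.5, 55.5, 84.1 and 109 CPM in the knockout groups and at 44.7, 64.7, 87.2 and 116 CPM in wild type. In both libraries these levels went up with each step, and GDF15 was lower in the knockout at every step.

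MDM2, unlike GDF15, was not lower in the knockout at 1 UMI or more. It stood at 86.7, 124, 144 and 204 CPM in the knockout groups and at 93.6, 116, 135 and 192 CPM in the wild-type groups. NEAT1 was lower in the knockout throughout, at 295, 570, 521 and 773 CPM, against 967, 1450, 1794 and 2518 CPM in wild type. CCNB1 ran the other way, at 154, 93.7, 79.9 and 48.7 CPM in the knockout groups and 115, 98.1, 78.9 and 56.1 CPM in the wild-type groups. The upper knockout groups are small, and intervals of neighbouring ones overlap for several genes, among them GDF15 between 1 and 2 UMIs.

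**Figure D5:**
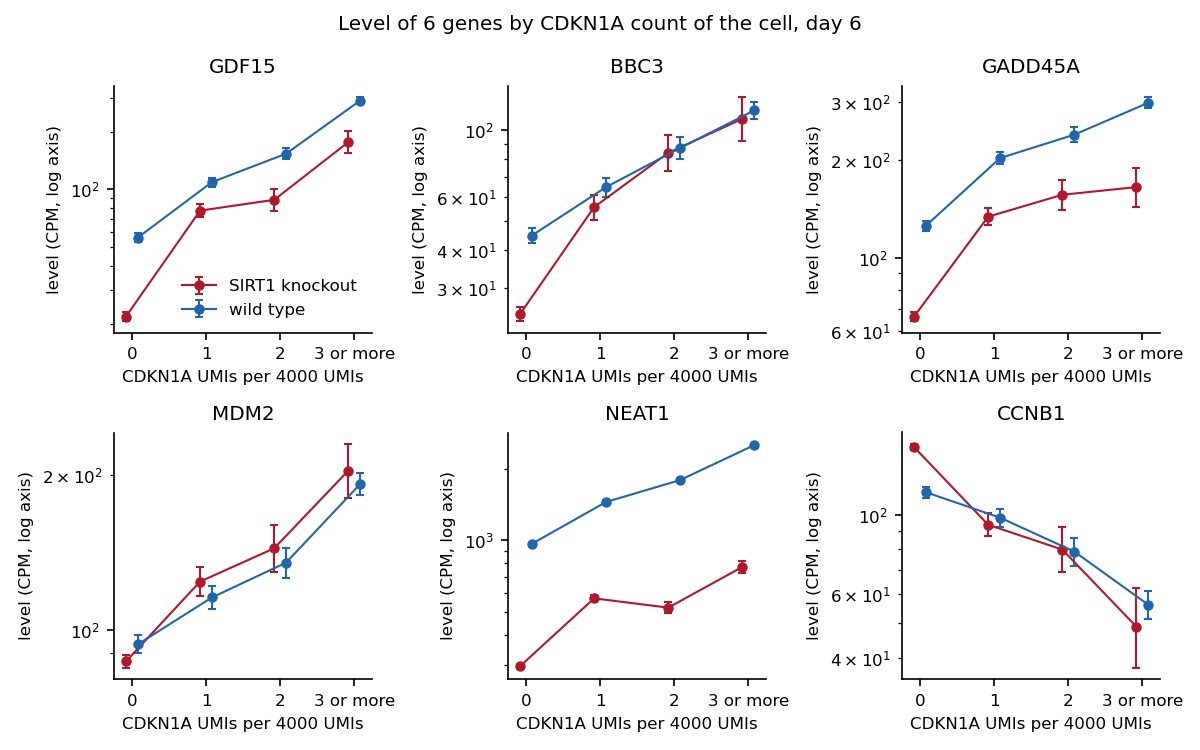
Level in CPM (log axis) of 6 genes in cells grouped by CDKN1A UMIs among 4000 drawn UMIs, SIRT1 knockout in red and wild type in blue, bars being exact 95% intervals. GDF15, BBC3, GADD45A and MDM2 have higher levels at each step in both libraries, with overlapping intervals among the upper knockout groups, NEAT1 is lower in the knockout at every step (773 against 2518 CPM at 3 or more), and CCNB1 is lower at each step.

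The libraries were also compared within the matched sets, with the knockout over wild type, where medians over all genes were 0.26 (log2) among CDKN1A-high and 0.23 among CDKN1A-zero cells. Of the p53 list, 2 of 51 measured members were higher (21.8% of all genes) and 15 lower (5.19%) among CDKN1A-high cells, with a median of -0.26. Among CDKN1A-zero cells 2 of 45 were higher (16.8%) and 13 lower (4.1%), with a median of -0.30. GDF15 stood at 101 CPM in knockout and 289 CPM in wild-type CDKN1A-high cells (ratio 0.349, 0.327 to 0.372). It stood at 9.61 CPM in knockout and 34.8 CPM in wild-type CDKN1A-zero cells (ratio 0.276, 0.224 to 0.338). XPC, a DNA damage sensor, and CASP8AP2, a gene of histone RNA processing, were the 2 that were higher in the knockout in both sets. These sets were matched on total UMIs and not on CDKN1A. CDKN1A stood at 265 CPM in knockout and 851 CPM in wild-type CDKN1A-high cells. At 2 thinned CDKN1A UMIs the intervals of BBC3 overlapped (84.1 CPM in the knockout and 87.2 CPM in wild type). There GDF15, PLK2, PHLDA3, GADD45A, FDXR and ZMAT3 were lower in the knockout with intervals apart. At 3 or more UMIs those of FDXR and ZMAT3 overlapped too. Lower p53 targets were thus seen in cells with and without CDKN1A UMIs, though CDKN1A-high cells differed in CDKN1A level. Genotype and library cannot be told apart here.

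Cells taken by the same rule at day 0 also had higher p53 targets. Of the p53 list 18 of 50 were higher in the knockout at day 0, against 0.612% of all genes, and 20 of 50 in wild type, against 0.638%, with 0 lower in either and medians of 0.36 in the knockout and 0.47 in wild type. GDF15 was 2.98-fold higher (2.65 to 3.36) in the knockout and 4.12-fold (3.58 to 4.75) in wild type. MDM2 had ratios of 1.93 in the knockout and 2.28 in wild type, and NEAT1 had 1.98 in the knockout and 2.20 in wild type. Of the G2 and M phase list, 3 genes were lower in the knockout (0.122% of all genes) and 6 in wild type (0.165%). In those libraries 510 of 1455 knockout and 397 of 1106 wild-type cells so chosen held a single CDKN1A UMI, so the ratios at the 2 days are given side by side and not compared.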

How the data were processed

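Single cells were profiled with a 10x Chromium 3′ kit, per the labels, in 4 libraries of H9 cells, 1 per group, grouped by the labels of genotype and day. The authors deposited unnormalized UMI counts for 36601 features in every barcode. The submitters' processing notes name Cell Ranger 6.1.2 and GRCh38, while the file headers name Cell Ranger 4. Sources used here give no annotation version.

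Cells needed 4000 UMIs, 1000 genes and at most 20% mitochondrial UMIs. The UMIs of all cells in a set were added up and scaled to CPM. CDKN1A-high and CDKN1A-zero cells were paired 1 to 1 without replacement on log2 total UMIs (largest gap 0.1), and CDKN1A was left out of every count. Intervals are exact conditional binomial (Clopper-Pearson) 95% intervals for ratios, exact Poisson for levels and exact binomial for shares. They cover counting error only. Log2 ratios used a prior count of 0.5. Each library was clustered with scanpy 1.11.5 (2000 variable genes without CDKN1A, 30 components, 15 neighbours, Leiden resolution 0.5). Scrublet's automatic threshold marked 0% of the cells of each day 6 library, so its call was treated as not having worked, doublets were kept and an alternative left out the highest scores at 0.8% per 1000 cells. Free RNA was read from barcodes with 1 to 50 UMIs. The procedure was checked on simulated counts. Gene positions came from GENCODE on GRCh38 and promoters from RefSeq.

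The members, the 39 gene lists and the alternatives were chosen with earlier results of these data known. Named genes were CDKN1A, GDF15 and SIRT1, and the 10 highest and 10 lowest ratios of each library among genes at 20 CPM. To these came the 10 highest and 10 lowest genes by whichever library's ratio was nearer to 1, with the same direction in both. Also named were the 5 largest differences between libraries each way, every p53 member past the rule and up to 4 members of each other list. Members named besides these, such as BAX, were chosen after their values were seen. RNA of near-identical gene copies and of overlapping genes can be split by the counting, and such counts are uncertain. The values of 1 gene are not reported here, though list counts include it.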

Additional observations from a re-analysis of the deposited data

Results flagged for a closer look

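For 10 of the genes chosen by the naming rule, the intervals of both libraries exclude 1 in opposite directions. The values are log2 ratios of CDKN1A-high over CDKN1A-zero cells, knockout minus wild type, and with 1 library each the differences were not tested. ATF5 had the largest, at -1.91, and was lower in CDKN1A-high knockout cells and higher in CDKN1A-high wild-type cells. LINC01405 differed by -1.20, CELF2 by -0.94, the chaperone gene HSPA5 by -0.77 and CDKN1C by -0.68, all with ratios below 1 in the knockout and above 1 in wild type. NR2F2, a nuclear receptor gene, differed by 1.34 (ratios of 1.37 in the knockout and 0.540 in wild type), NDUFA4L2 by 0.93, the metallothionein gene MT1F by 0.71, SPRY1 by 0.36 and the keratin gene KRT18 by 0.20. Within clusters the NR2F2 ratios were 0.997 in the knockout and 0.762 in wild type.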

How the results depend on the processing

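Each count was recomputed under 16 alternatives, of which matching within chromosome 20 tertiles and leaving out the cluster richest in CDKN1A-high cells were chosen after seeing the data. The p53 list had 24 to 36 higher members in the knockout and 25 to 37 in wild type, with 0 lower under each alternative. The 24, at 20 CPM, stood beside 85 of all 6239 measured genes. The 25, against all other cells, stood beside 139 of 8060. Both highest counts came with no filter, where 470 of 23204 genes were higher in the knockout and 689 of 22444 in wild type. The GDF15 ratio ran from 4.06 (cells chosen after thinning) to 16.2 (free RNA subtracted) in the knockout and from 3.76 (against all other cells) to 10.9 (free RNA subtracted) in wild type. The G2 and M phase median ran from -0.90 to -0.17 in the knockout and from -1.14 to -0.21 in wild type.

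Counts over all genes depended more on the setting. Higher genes of the knockout, 135 in the report, were 220 with the highest 10% as members, 87 after thinning, 82 within clusters, 85 with a 20 CPM filter and 470 with no filter. Lower genes of the knockout, 163 in the report, were 343 with the highest 10%, 92 with the highest 30%, 80 after thinning, 84 against all other cells, 99 unmatched, 30 within clusters, 48 within cycle tertiles and 514 with no filter. Higher genes of wild type, 278 in the report, were 154 after thinning, 139 against all other cells, 143 within clusters, 178 at 20 CPM and 689 with no filter. Lower genes of wild type, 378 in the report, were 176, 150, 123, 220 and 838 under the same settings. The filters change how many genes are tested, and for the rest the cause was not tested.

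Direction turned for a few genes on the log2 scale. MT1G in the knockout was -1.30 with the highest 10%, and 1 cell held 20.3% of its UMIs. In wild type H3.Y was -0.00096 after thinning, S100A16 was -0.11 within clusters and -0.015 without the cluster led by ANXA1, ETS1 was -0.0063 and TNFAIP8L1 0.11 within clusters. No paired analysis was possible because each group had 1 library and the labels give no replicate numbers. Cells were shallow for single genes, so a cell without a CDKN1A UMI may still express it.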

Other observations

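The highest ratio of wild type, that of H3.Y, rested on a single cell and was looked at after its value was seen. H3.Y, a primate histone H3 variant gene, had a ratio of 153, and 312 of its 318 UMIs in CDKN1A-high wild-type cells (98.1%) lay in 1 cell with 11642 UMIs, 10 of them of CDKN1A. That cell also held 17 of the 25 ALPG UMIs, 3 of the 5 TRIM43 UMIs and 3 of the 3 TAF11L11 UMIs found in all wild-type cells at day 6. Single cells weighed on other ratios too. In wild type 1 cell held 45.7% of the CRYAB UMIs of CDKN1A-high cells and 1 cell held 36.7% of those of AREG. In the knockout 1 cell held 304 of the COL1A1 UMIs (20.1%).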
